A study of Mus musculus with 4 samples.

Results

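The heat shock chaperones described here are 10 genes, Hspa1a, Hspa1b, Hspa8, Hsph1, Dnajb1, Dnaja1, Hsp90aa1, Hsp90ab1, Hspd1 and Hspe1, of 31053 genes counted. The members were chosen by their measured rise in the regulatory T cells of skin tumors. Levels in regulatory T cells are therefore given as a description without a test, and the question asked of the data was how far the other immune cell types share the rise. All 10 genes had counts in each of the 4 libraries. The libraries hold CD45+ and DAPI- immune cells, sorted from 2 control skins of uninoculated C57/BL6 mice and from 2 skin tumors in mice of the same genotype, with 1 droplet library for each. The tumors grew for 2 weeks from injected cells of the 2323 line, a single line from a mouse skin tumor model in which the keratin 14 promoter directs an inducible Cre system (K14rtTA/tetOCre) to epidermis, so that both tumors share 1 cell line. The injected mice were 8 to 10 weeks old, and control mice had no injection, so tumor, injection and site of sampling cannot be told apart. Skins and tumors were digested alike for 2 h in 0.5% collagenase IV kept at 37 °C.

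Cells were assigned to types by UMIs of marker genes, none of them a chaperone. A UMI is a molecule counted once, and levels are given as UMIs of a gene per 10000 UMIs of all genes, summed over the cells of a gate in a library. The files held 34893543 to 73904272 UMIs per library, and 12848 cells passed the filters on cells, of which 7984 (62.1%) fell into exactly 1 of 15 gates. In 12 gates every library had at least 10 cells, and these were compared. Foxp3, which the regulatory T cell gate required, stood at 2.69 to 5.15 per 10000 there. The CD4 T gate required that no Foxp3 UMI was counted, so regulatory T cells in which Foxp3 was missed can fall into it. Their part in the CD4 T levels was not tested. Tumor gates were small for dendritic epidermal T cells (DETC; 18 and 25 cells) and type 2 innate lymphoid cells (ILC2; 11 and 18 cells). Other small gates were mast cells (15 and 33 control cells, 29 and 24 tumor cells) and control NK cells (23 and 16). Type 1 conventional dendritic cells had 21 and 27 control cells, and 18 cells in tumor replicate 2. Replicate 1 of control skin held 17 neutrophils and 20 type 2 conventional dendritic cells. The ILC2 gate required that no UMI of a CD3 gene or of Foxp3 was counted. Its cells had a median of 2635 and 2846.5 UMIs in tumors, against 5262 and 5085.5 in control skins. T cells with these UMIs missed, regulatory T cells among them, can fall into it where they pass its other markers. Their part in the ILC2 levels was not tested. The CD3 genes, at 42.8 and 41.8 in control DETC, summed to 13.3 and 19.5 in tumor DETC, and the ILC2 markers Il5, Il13 and Hs3st1 were at 0 in both tumor ILC2 libraries, so these labels are weaker in tumors. C1qa, C1qb and C1qc, genes of macrophages, summed to 55.0 to 77.6 in tumor macrophages, 0.486 to 1.5 in the tumor gates of regulatory T, CD4 T, CD8 T and NK cells, and 7.04 and 1.67 in tumor ILC2; the part of free RNA or mixed droplets in the chaperone levels was not tested. Of 14772 distinct barcodes, 23 occurred in more than 1 library.

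Chaperones hold other proteins in a foldable state. Proteins of the HSP70 family (Hspa1a, Hspa1b, Hspa8) bind short exposed stretches of unfolded chains in an ATP-driven cycle, J-domain proteins (Dnajb1, Dnaja1) deliver clients and start ATP hydrolysis, and the HSP110 protein Hsph1 exchanges the nucleotide to release them. HSP90 (Hsp90aa1, Hsp90ab1) takes over late-folding clients such as kinases and steroid receptors, and Hspd1 with its lid Hspe1 forms the folding chamber of mitochondria. Heat, misfolded protein and other stresses activate heat shock factor 1, which binds repeats of the unit nGAAn, the heat shock element, in the promoters of the inducible genes. Hspa8 and Hsp90ab1 are the constitutive counterparts of the inducible Hspa1a, Hspa1b and Hsp90aa1.

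As heat shock factor 1 acts through this element, the stretches of the members' promoters that match it are shown first. RefSeq promoters of build GRCm38 were found for 7 members, and the 250 bases before each start were searched on both strands for 2 adjoining units (GAANNTTC or TTCNNGAA) and for 3 (GAANNTTCNNGAA or TTCNNGAANNTTC), where each match of 3 holds matches of 2. The 7 members had 12 promoters, and 6 members had a match of 2 units in at least 1 of theirs. Of all 32851 promoters searched, 12.8% held such a match, a share per promoter and not per gene. Matches of 3 units stood in a promoter of Hspd1 and in that of Hspe1, beside 0.466% of all promoters. The stretches that hold the matches are printed 5′ to 3′ on the strand of the gene, with the units in capitals.
Hspa1a, chr17:34972242-34972271, minus strand: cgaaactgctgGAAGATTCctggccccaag
Hspa1b, chr17:34959324-34959353, minus strand: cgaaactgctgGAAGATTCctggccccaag
Hsph1, chr5:149636351-149636380, minus strand: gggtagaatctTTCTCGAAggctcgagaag
Dnaja1, chr4:40722333-40722362, plus strand: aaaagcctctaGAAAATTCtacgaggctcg
Hspe1, chr1:55088053-55088082, plus strand: ggtccgTTCTAGAACCTTCCGGAAggcccc
Hspd1, chr1:55088053-55088082, minus strand: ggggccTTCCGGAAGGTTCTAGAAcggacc

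The stretches of Hspa1a and Hspa1b were identical, and their matches lay 104 to 97 bases before the gene start. Hspe1 and Hspd1 are neighbours on opposite strands and share 1 element, which lay 89 to 72 bases before the start of Hspe1 and 144 to 127 bases before a start of Hspd1. In both windows searched for Dnajb1 these letters were not found. The gene bodies of Hspa1a (chr17:34969190-34972156) and Hspa1b (chr17:34956436-34959238) are near-copies, with transcripts identical over 84.4% of the alignment, and 49.4% over the last 300 bases, where 3′ reads fall. Reads of the pair can still be confused, so both are read with that reserve. Hspd1 (chr1:55077835-55088243) and Hspe1 (chr1:55088132-55091307) overlap at their 5′ ends on opposite strands, and Hspa8 (chr9:40800984-40810087) holds the small nucleolar RNA genes Snord14c, Snord14d and Snord14e. The other members lie at chr5:149614287-149636376 (Hsph1), chr12:110690605-110702728 (Hsp90aa1), chr17:45567775-45573271 (Hsp90ab1), chr8:83608193-83612653 (Dnajb1) and chr4:40722150-40737149 (Dnaja1) in the same build, whose other name is the mm10 of the authors' files. RefSeq starts can lie inside these gene bodies, so the printed stretches of Dnaja1 and Hspd1, and most of that of Hsph1, fall within them.

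Higher chaperone levels in tumors were shared widely. In the 11 gates other than regulatory T cells, 110 of 110 pairs of a member and a gate had both tumor libraries above both control libraries. Over all genes tested, the share with both tumors above both controls was 31% in CD4 T cells, 38% in CD8 T cells, 25.5% in DETC, 21.7% in NK cells, 30.1% in ILC2, 39% in C1q-high macrophages, 26.1% in C1q-low monocyte-like cells, 32.7% in type 1 conventional dendritic cells (cDC1), 28.8% in type 2 (cDC2), 25% in neutrophils and 15.3% in mast cells. In regulatory T cells, whose values chose the members, it was 25.5%, beside 10 of 10 members. The members of a gate come from the same 4 libraries, so the pairs are not independent. The regulatory T cells whose values chose the members came from these libraries too. The other gates are therefore not fully apart from that choice, and the part of differences shared by all cells of a library was not tested. Control skin replicate 1 lay above control skin replicate 2 in 81 of the 110 pairs, and tumor replicate 1 above tumor replicate 2 in 62. Size and test were less even than direction. In edgeR's quasi-likelihood test over all genes of a gate, with the Benjamini-Hochberg adjusted p under 0.05, 43 of the 110 pairs were called higher in tumors and 0 lower.

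**Figure D1:**
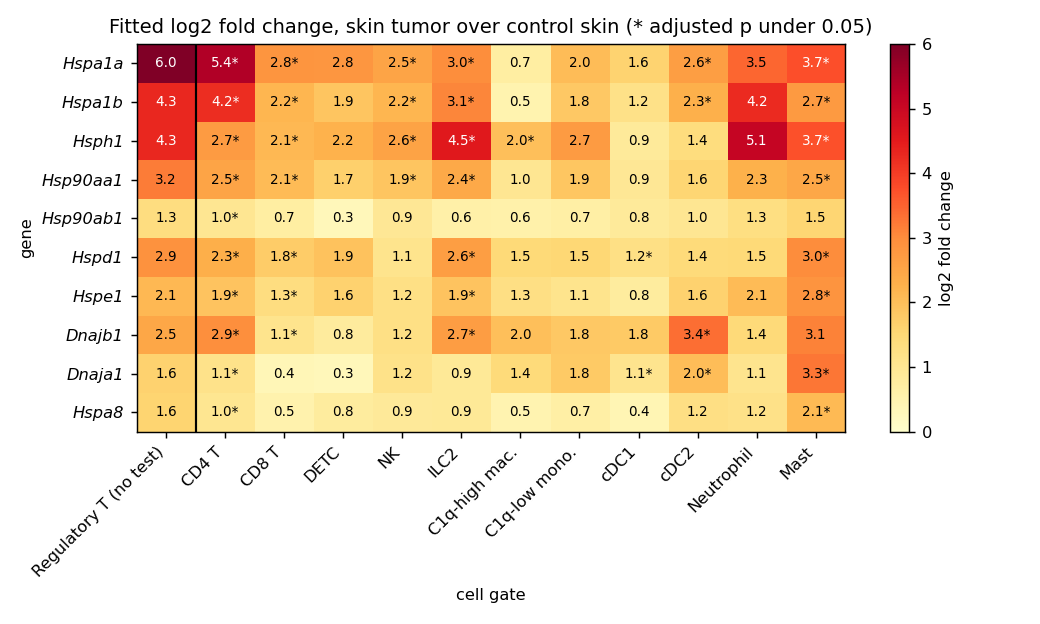
Fitted log2 fold changes of skin tumor over control skin for the 10 chaperone genes (rows) in 12 cell gates (columns), with an asterisk where the adjusted p of edgeR's test was under 0.05 and no test in regulatory T cells. All values are above 0, CD4 T cells carry 10 asterisks, and DETC, C1q-low monocyte-like cells and neutrophils carry 0; the Hsph1 value of neutrophils rests on 2 control UMIs.

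In lymphoid gates other than regulatory T cells, 28 of 50 pairs were called higher. All 10 members were called in CD4 T cells, where 5.24% of 7497 genes were called higher, 7 in CD8 T cells (4.28%), 7 in ILC2 (4.96%), 4 in NK cells (0.371%) and 0 in DETC (0%). The CD4 T gate can hold regulatory T cells without a counted Foxp3 UMI. Its calls are therefore not fully apart from the cells whose values chose the members. Calls in ILC2 carry the same reserve, as that gate can hold such cells where CD3 and Foxp3 UMIs were missed. The median log2 fold change of the 10 was 2.41 in CD4 T cells, 1.54 in CD8 T cells, 2.52 in ILC2, 1.23 in NK cells and 1.65 in DETC, while the median over all genes tested lay between -0.09 and 0.04 in these gates. In DETC, 6 members had an unadjusted p under 0.05, beside 6% of all genes that were also higher in tumors, and DESeq2 called 4, beside 1.78%. The counts depended on single libraries, and those of all genes moved with them. Without control skin replicate 1 the called members were 6 in CD4 T, 6 in CD8 T and 10 in NK cells, while genes called higher went from 393 to 59, from 334 to 139 and from 19 to 119. Without control skin replicate 2 the members were 7, 2 and 7, and the genes 162, 116 and 201. Without skin tumor replicate 2 the members were 1 in ILC2, 6 in DETC and 8 in NK cells, while the genes went from 197 to 4, from 0 to 669 and from 19 to 43. Without skin tumor replicate 1 there was 1 member in DETC, among 38 genes.

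In the myeloid and mast gates 15 of 60 pairs were called higher. Mast cells had 8 called members, against 1.24% of 2257 genes called higher, cDC2 4 (0.542%), cDC1 2 (1.23%) and C1q-high macrophages 1 (0.143%), and no member was called in C1q-low monocyte-like cells or neutrophils (0% in both). The median log2 fold change of the members was 2.92 in mast cells, 1.6 in cDC2, 1.00 in cDC1, 1.13 in macrophages, 1.80 in monocyte-like cells and 1.77 in neutrophils, beside 0.00 to 0.04 for all genes. At an unadjusted p under 0.05 all 10 members passed in monocyte-like cells and neutrophils, beside 5.28% and 3.74% of all genes that were also higher in tumors. DESeq2 called 8 members in monocyte-like cells (0.624% of genes), 3 in neutrophils (0.165%) and 6 in macrophages (1.23%). Without either control library the mast cell count was 0, as was that of all genes, and without either tumor library it was 10, among 126 and 174 genes called higher. In cDC2 it was 7 without control skin replicate 1 and 8 without skin tumor replicate 1 (104 and 58 genes), and in monocyte-like cells 4 and 8 without skin tumor replicate 1 and 2 (43 and 170 genes). Leaving out skin tumor replicate 1 gave 4 called members in cDC1 (115 genes), and leaving out control skin replicate 2 gave 1 (80 genes). For macrophages 0 members were called without any 1 of the libraries, where at most 1 gene was called. For neutrophils 4 were called without control skin replicate 1 (5 genes) or without either tumor library (15 and 11 genes).

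Of the 43 called pairs, 15 were called under all alternatives that gave a value. They were Hspa1a, Hspa1b, Hsph1, Dnajb1, Hsp90aa1 and Hspe1 in CD4 T cells, Hspa1a and Hspa1b in CD8 T cells, Hspa1a, Hsph1 and Hsp90aa1 in NK cells, Hsph1 in ILC2, and Hspa1a, Hspa1b and Dnajb1 in cDC2. How many of all genes called higher held under every alternative was not computed, so the 15 do not set the members apart from other called genes. With 2 libraries a group an exact permutation test of a single value cannot give a p under 0.333, so the calls rest on the spread that edgeR shares across genes.

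The summed level of the 10 members gives the size of the difference in molecules. In regulatory T cells it was 36.8 and 31.7 per 10000 in control skins and 121 and 199.8 in tumors, a ratio of means of 4.69 that the choice of members fixed in direction. CD4 T cells went from 46.9 and 39.9 to 176 and 154, a ratio of 3.8, and ILC2 from 43.1 and 28.9 to 125 and 173, a ratio of 4.15. Mast cells held the highest tumor sums, 401 and 262 against 68.4 and 80.0 in control skins. Regulatory T cells, ILC2 and CD4 T cells had the lowest control sums besides neutrophils, while the control sum of mast cells was exceeded only by those of macrophages and cDC1.

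Macrophages, the gate with the most tumor cells (1925 and 629), went from 92.2 and 77.8 to 154 and 185 per 10000, a ratio of 2.00, and cDC1 from 98.1 and 85 to 157 and 204, a ratio of 1.97. These were the smallest ratios of the 12 gates, and those 2 gates also had the highest control sums. Neutrophils had the lowest sums in both groups, with 14.2 and 15.8 in control skins and 65.9 and 49.7 in tumors. No tumor library overlapped with a control library of its own gate.

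**Figure D2:**
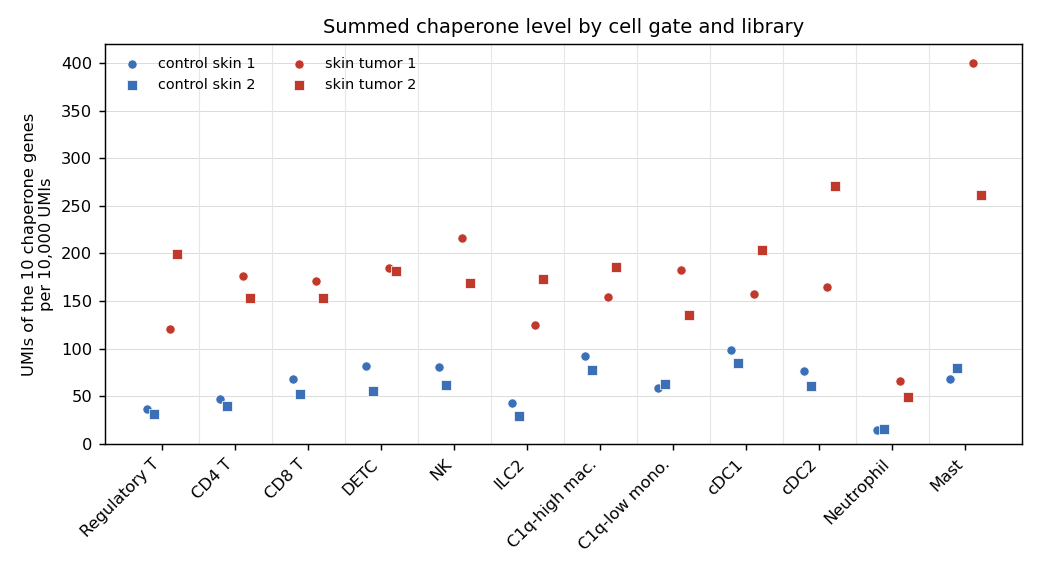
Summed level of the 10 chaperone genes, in UMIs per 10000 UMIs, in 12 cell gates, with 1 point per library (blue, control skin; red, skin tumor; circles, replicate 1; squares, replicate 2). In each gate both red points lie above both blue points, from the neutrophils at 14.2 to 65.9 to the mast cells at 68.4 to 400.5.

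Hspa1a and Hspa1b, the stress-inducible HSP70 genes, had their largest called changes in CD4 T cells. Hspa1a stood at 0.791 and 0.132 per 10000 in control CD4 T cells (55 and 4 UMIs) and at 25.7 and 20.6 in tumor CD4 T cells (2785 and 1872 UMIs; log2 fold change 5.37, SE 0.52, adjusted p = 0.000744). The 2 control libraries differed from each other by several-fold, and both lay far below the tumors. Hspa1b went from 1.44 and 0.132 to 18.4 and 16.2 in the same cells (log2 fold change 4.21, SE 0.61, adjusted p = 0.00316). In regulatory T cells Hspa1a was 0.243 and 0.261 in controls (7 UMIs in each) and 9.57 and 22.5 in tumors, and Hspa1b 0.139 and 1.08 in controls and 8.2 and 15.6 in tumors, with fitted log2 fold changes of 5.98 and 4.29 given without a test. By the mean of the controls, regulatory T cells and CD4 T cells had the lowest Hspa1a levels of the 12 gates.

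CD8 T cells had higher Hspa1a in control skin, 2.7 and 2.16 per 10000, and reached 19.6 and 19.5 in tumors (log2 fold change 2.82, SE 0.27, adjusted p = 0.000516). In NK cells Hspa1a went from 4.48 and 2.61 to 24.8 and 15.9 (log2 fold change 2.52, SE 0.34, adjusted p = 0.0238), and in ILC2 from 2.42 and 0.778 to 14.4 and 15.3 (log2 fold change 2.96, SE 0.47, adjusted p = 0.00509). The 6 tumor libraries of these gates lay between 14.4 and 24.8, beside 20.6 and 25.7 in CD4 T cells. Macrophages had the highest control levels, 14 and 10.7 for Hspa1a and 13.7 and 12.8 for Hspa1b, and tumor levels of 23.9 and 22.6 for Hspa1a and 22.5 and 21.1 for Hspa1b. Neither change was called in macrophages (log2 fold change 0.71, SE 0.23, adjusted p = 0.274 for Hspa1a, and adjusted p = 0.371 for Hspa1b), although the groups do not overlap.

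In the other gates Hspa1a and Hspa1b ranged from called to well short of the threshold. cDC2 went from 5.84 and 3.6 to 23.3 and 37.4 for Hspa1a (log2 fold change 2.64, SE 0.35, adjusted p = 0.0203), and mast cells from 1.63 and 3.55 to 41.7 and 16.6 (log2 fold change 3.73, SE 0.59, adjusted p = 0.00853). Hspa1b was called in both gates, with adjusted p = 0.0203 and 0.0298. For Hspa1a, tumor mast cells of replicate 1 stood well above those of replicate 2, and the control mast cell levels rest on 9 and 46 UMIs. cDC1 had 10.8 and 3.18 of Hspa1a in controls and 20.4 and 24.9 in tumors without a call (adjusted p = 0.121), and monocyte-like cells 4.89 and 6.52 in controls and 32.8 and 17.1 in tumors (adjusted p = 0.168). DETC and neutrophils were not called either, with adjusted p = 0.364 and 0.0594 for Hspa1a.

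**Figure D3:**
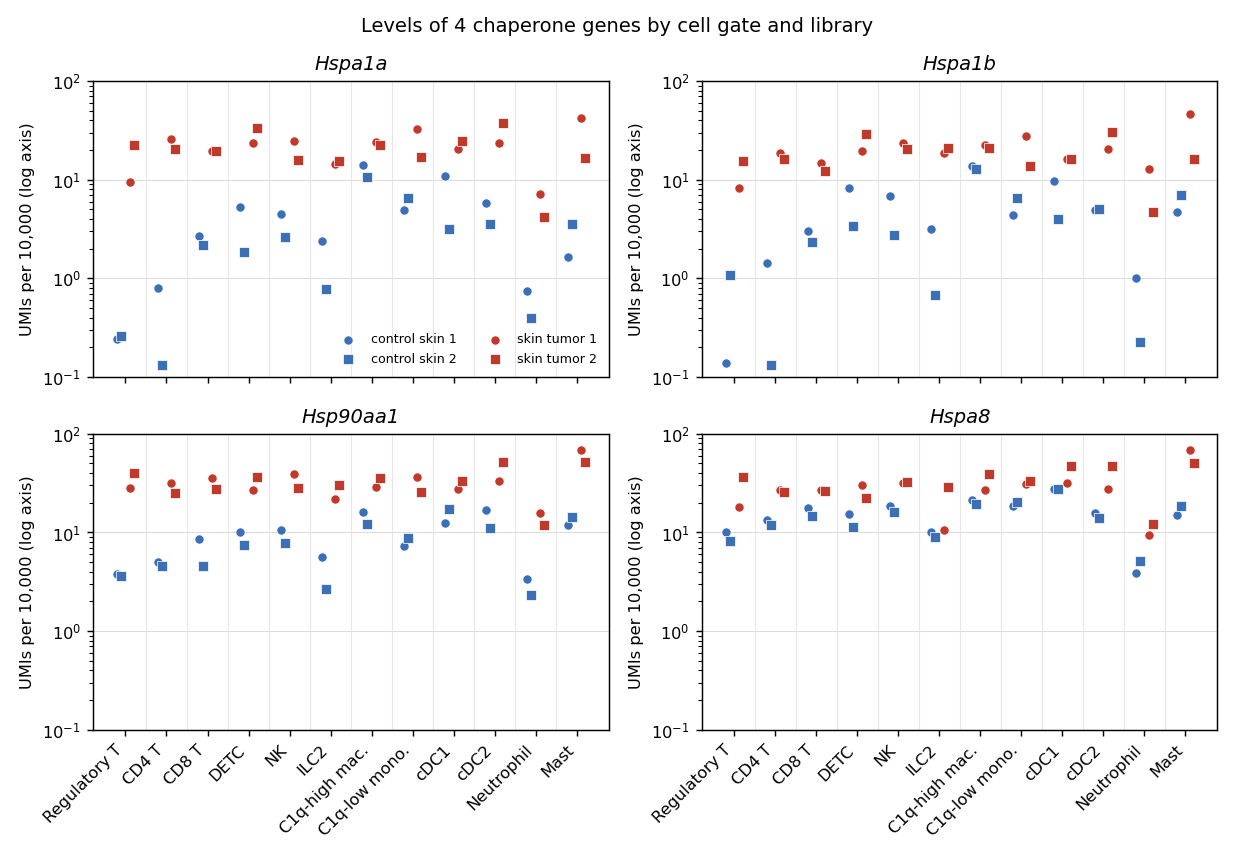
Levels of Hspa1a, Hspa1b, Hsp90aa1 and Hspa8 in UMIs per 10000 on a log axis, by cell gate, with 1 point per library (blue, control skin; red, skin tumor; circles, replicate 1; squares, replicate 2). For Hspa1a the control points run from 0.132 in CD4 T cells to 14.0 in macrophages, while the tumor points outside neutrophils stay between 9.57 and 41.7.

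Control levels of Hspa1a were spread wider over the gates than tumor levels. Over the 10 tested gates other than regulatory T cells and neutrophils, the highest control mean (macrophages) was 26.7 times the lowest (CD4 T cells), whereas the highest tumor mean was 2.04 times the lowest (ILC2). For Hspa1b the same ratios were 16.9 in control skins and 2.33 in tumors. With neutrophils, which had the lowest tumor means of both genes, the ratios were 26.7 and 5.35 for Hspa1a and 21.5 and 3.57 for Hspa1b. This did not hold for each member. For Hspa8 the ratios were 2.92 and 2.99, for Hsp90ab1 2.18 and 2.97, and for Dnajb1 7.44 and 10.7. The ratios are descriptions without a test.

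Hspa8, the constitutive HSP70, was abundant in control cells and moved less than Hspa1a and Hspa1b on the log2 scale. On the scale of molecules the order depended on the gate. The tumor mean of Hspa8 exceeded the control mean by 12.5 per 10000 in macrophages, beside 10.9 for Hspa1a and 8.54 for Hspa1b. In CD4 T cells Hspa8 rose by 13.8, beside 22.7 and 16.6. It was called in CD4 T cells, with 13.3 and 12 per 10000 in controls and 27.1 and 25.8 in tumors (log2 fold change 1.02, SE 0.25, adjusted p = 0.0321), and in mast cells, with 15.1 and 18.4 in controls and 68 and 50.1 in tumors (log2 fold change 2.10, SE 0.38, adjusted p = 0.0169). In the other 9 tested gates it missed the threshold, with fitted log2 fold changes from 0.42 in cDC1 to 1.25 in cDC2. The libraries of the groups came closest in ILC2, where controls had 10.0 and 8.96 and tumors 10.7 and 28.8. Without skin tumor replicate 2 the ILC2 value turned to -0.24. In regulatory T cells the libraries read 10.2 and 8.14 in control skins and 18.3 and 36.6 in tumors.

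Hsph1, the HSP110 nucleotide exchange factor that acts on HSP70, was called in 6 gates, as often as Hspa1a and Hspa1b, and was the only member called in macrophages. Macrophages had 1.96 and 1.58 per 10000 in controls and 8.49 and 7.94 in tumors (log2 fold change 2.01, SE 0.21, adjusted p = 0.0344), a call that was lost when any 1 library was left out. In ILC2 it went from 1.05 and 0.684 to 19.3 and 27.3 (log2 fold change 4.52, SE 0.39, adjusted p = 0.000674), which was the largest called change of ILC2 among the members. CD4 T cells went from 1.48 and 0.861 to 8.84 and 7.75 (log2 fold change 2.71, SE 0.29, adjusted p = 0.00108). The control replicates lay close together in macrophages and ILC2 and further apart in CD8 T cells, where Hsph1 read 2.84 and 0.644 in controls and 9.61 and 8.5 in tumors (log2 fold change 2.13, SE 0.51, adjusted p = 0.0259).

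NK cells and mast cells were the other gates with a call for Hsph1. NK cells went from 2.91 and 1.5 to 15.7 and 10.3 (log2 fold change 2.55, SE 0.36, adjusted p = 0.0246), and mast cells from 1.81 and 1.08 to 15.6 and 14.4 (log2 fold change 3.71, SE 0.44, adjusted p = 0.00417). Neutrophils had 0 and 2 UMIs of Hsph1 in control skins and 133 and 45 in tumors, a pooled ratio of 38.7 with an exact 95% interval of 10.6 to 322 that covers counting error only, and the adjusted p was 0.0859. In regulatory T cells the level was 0.521 and 0.374 in controls and 4.97 and 12.7 in tumors.

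The J-domain proteins that serve HSP70 differed from each other. Dnajb1, the inducible one, was called in CD4 T cells, CD8 T cells, ILC2 and cDC2. CD4 T cells had 0.719 and 0.762 per 10000 in controls and 5.8 and 6.03 in tumors (log2 fold change 2.95, SE 0.24, adjusted p = 0.000517), and cDC2 had 0.504 and 0.523 in controls and 3.99 and 7.19 in tumors (log2 fold change 3.36, SE 0.39, adjusted p = 0.0162). CD8 T cells went from 1.85 and 2.01 to 4.27 and 5.05 (log2 fold change 1.10, SE 0.22, adjusted p = 0.0127). Among the 4 gates with a call, the fitted change was smallest in CD8 T cells.

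Dnaja1, a farnesylated J protein of the cytosol, was called in CD4 T cells, cDC1, cDC2 and mast cells. The mast cell levels were 1.99 and 6.02 in controls and 37.8 and 29.1 in tumors (log2 fold change 3.28, SE 0.51, adjusted p = 0.00853), and the cDC2 levels 3.65 and 2.63 in controls and 10.6 and 16.2 in tumors (log2 fold change 2.04, SE 0.32, adjusted p = 0.029). In CD8 T cells it read 7.31 and 4.55 in controls and 9.34 and 8.02 in tumors (log2 fold change 0.37, SE 0.29, adjusted p = 0.465). DETC had 10.9 and 8.2 in controls and 15.8 and 11.6 in tumors, and without cycling cells the fitted change of DETC was -0.02. Regulatory T cells had 0.695 and 0.486 of Dnajb1 in controls and 2.35 and 4.29 in tumors, and 4.28 and 3.32 of Dnaja1 in controls and 10.0 and 13.6 in tumors.

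Hsp90aa1, the inducible HSP90, was called in CD4 T cells, CD8 T cells, NK cells, ILC2 and mast cells. It went from 4.97 and 4.57 to 31.9 and 25.3 per 10000 in CD4 T cells (log2 fold change 2.53, SE 0.27, adjusted p = 0.000958), and from 10.5 and 7.82 to 39.3 and 28.4 in NK cells (log2 fold change 1.89, SE 0.26, adjusted p = 0.0238). Mast cells had the highest tumor level, with 11.8 and 14.4 in controls and 68.6 and 51.3 in tumors (log2 fold change 2.47, SE 0.38, adjusted p = 0.00853). In each of these 3 gates the lower tumor library was more than double the higher control library. Macrophages had 16 and 12.3 in controls and 29.1 and 35.9 in tumors without a call (adjusted p = 0.182), and regulatory T cells 3.79 and 3.66 in controls and 27.9 and 40.4 in tumors.

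Hsp90ab1, the constitutive HSP90, was called in CD4 T cells alone among the 11 gates, from 15.9 and 15.1 to 32.4 and 31.2 per 10000 (log2 fold change 0.99, SE 0.25, adjusted p = 0.0381). Its fitted log2 fold changes elsewhere ran from 0.32 in DETC to 1.55 in mast cells, where the adjusted p was 0.0556. CD8 T cells had 17.9 and 17.3 in controls and 32.4 and 32 in tumors (adjusted p = 0.119). The constitutive genes Hsp90ab1 and Hspa8 were called in 1 and 2 gates, and the inducible Hsp90aa1, Hspa1a and Hspa1b in 5, 6 and 6. Regulatory T cells had 14.1 and 11.5 in controls and 28.3 and 35.9 in tumors. Whether members differ from each other in their change was not tested.

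Hspd1 and Hspe1, the chamber and lid of the mitochondrial chaperonin that share the promoter shown above, were called together in CD4 T cells, CD8 T cells, ILC2 and mast cells, and Hspd1 also in cDC1. In CD4 T cells Hspd1 went from 1.01 and 1.13 to 6.45 and 4.37 per 10000 (log2 fold change 2.30, SE 0.27, adjusted p = 0.0012), and Hspe1 from 2.17 and 1.72 to 8.34 and 7.04 (log2 fold change 1.91, SE 0.25, adjusted p = 0.00192). Mast cells had 1.99 and 2.08 of Hspd1 in controls and 16.1 and 10.8 in tumors (log2 fold change 3.0, SE 0.44, adjusted p = 0.00813). Hspd1 and Hspe1 had fitted log2 fold changes of 1.75 and 1.32 in CD8 T cells, 1.08 and 1.24 in NK cells and 1.46 and 1.25 in macrophages. They lay further apart in ILC2, at 2.63 and 1.91, and in neutrophils, at 1.47 and 2.08. cDC1 went from 2.13 and 2.26 to 4.98 and 6.02 of Hspd1 (log2 fold change 1.24, SE 0.25, adjusted p = 0.0397) and from 5.87 and 4.1 to 8.01 and 10.3 of Hspe1 (adjusted p = 0.151). Regulatory T cells had 1.01 and 0.598 of Hspd1 in controls and 4.92 and 7.09 in tumors, and 1.81 and 2.24 of Hspe1 in controls and 6.56 and 11.1 in tumors.

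To ask whether gates differ in the size of the change, the difference of the tumor changes was tested for 3 pairs of gates from the same libraries, which gave 8 called differences among 30. For CD4 T cells against macrophages, 3 members were called, beside 2.83% of the 9324 genes tested. The log2 change of Hspa1a was larger in CD4 T cells by 4.81 (SE 0.46, adjusted p = 0.00322), that of Hspa1b by 3.92 (SE 0.62, adjusted p = 0.0154) and that of Hsp90aa1 by 1.52 (SE 0.26, adjusted p = 0.0203). On the scale of molecules the tumor mean of Hspa1a exceeded the control mean by 22.7 per 10000 in CD4 T cells and by 10.9 in macrophages. The other 7 members missed the threshold, with differences from -0.24 for Dnaja1 to 0.98 for Dnajb1. As the CD4 T gate can hold regulatory T cells without a counted Foxp3 UMI, differences that involve it carry the same reserve as its calls. They are not fully apart from the cells whose values chose the members.

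NK cells exceeded macrophages for Hspa1a, by 1.82 (SE 0.29, adjusted p = 0.00778), and for Hspa1b, by 1.77 (SE 0.33, adjusted p = 0.0197), beside 0.686% of 8449 genes called. Dnajb1 and Hspd1 had differences of -0.74 and -0.35 there, neither of them called. For 3 members the change was called smaller in CD8 T cells than in CD4 T cells. The differences were -2.55 (SE 0.35, adjusted p = 0.00353) for Hspa1a, -2.11 (SE 0.43, adjusted p = 0.0316) for Hspa1b and -1.81 (SE 0.25, adjusted p = 0.00314) for Dnajb1, beside 1.3% of 8221 genes called in either direction. In this pair all 10 fitted differences were below 0. The share of all genes below 0 is not given here, so this count does not set the members apart. Those of Hsph1, Hsp90aa1 and Hspd1 turned above 0 without control skin replicate 1. Hspa1a levels were 25.7 and 20.6 in tumor CD4 T cells and 19.6 and 19.5 in tumor CD8 T cells. Its control levels were 0.791 and 0.132 in CD4 T cells (55 and 4 UMIs) and 2.7 and 2.16 in CD8 T cells. Hspa1a in the comparisons of CD4 T cells with macrophages and with CD8 T cells, and Hspa1b in the former, were called under all alternatives run. Fewer differences were called without control skin replicate 1 or without control skin replicate 2. How the number of called genes changed over all genes is not given here, so this does not set the members apart.

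**Figure D4:**
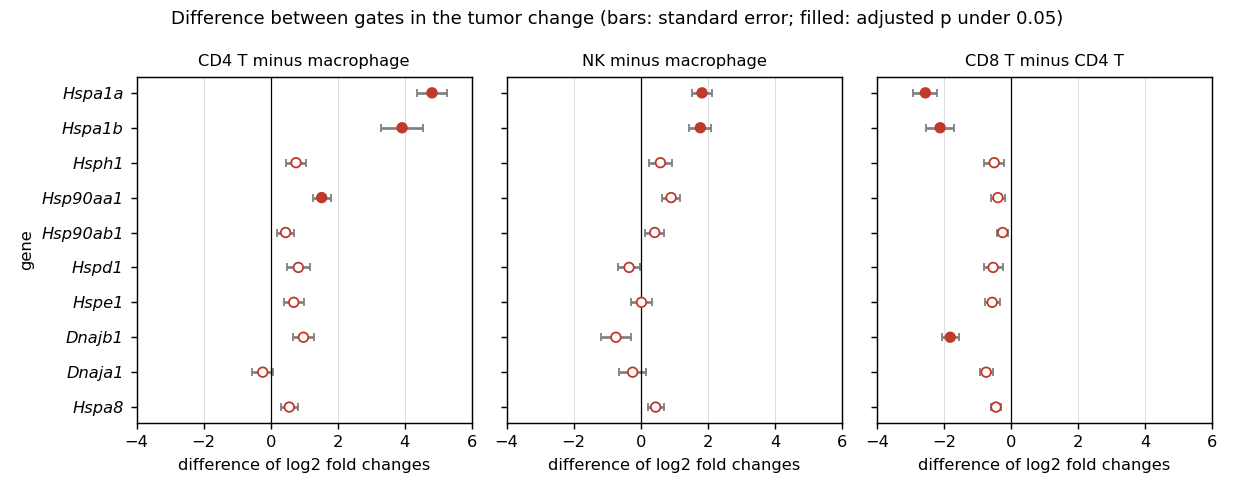
Difference between gates in the log2 tumor change of each chaperone gene, for CD4 T cells minus macrophages, NK cells minus macrophages and CD8 T minus CD4 T cells. Bars are standard errors and filled points have an adjusted p under 0.05, with Hspa1a at 4.81, 1.82 and -2.55 the farthest from 0 in each panel.

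Chaperone levels were uneven over the cells of a gate. In CD4 T cells the median cell had 41.8 and 33.6 chaperone UMIs per 10000 in controls and 103 and 118 in tumors, and the 90th percentile 74.4 and 62.6, then 482 and 348. The lowest 10% of tumor CD4 T cells, at up to 35 and 53.7, lay below the 90th percentile of the control cells. Mast cells had medians of 58.2 and 45.8 in controls and 216 and 279 in tumors. In neutrophils the median cell went from 11.7 and 12.8 to 16.5 and 17.5, and the 90th percentile from 28.5 and 23.1 to 55 and 56.9. Medians of the tumor DETC libraries were 146 and 46.6, the latter within the control values of 55.3 and 42.4.

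The share of cells with a Hspa1a UMI, after thinning each cell to 1000 UMIs, was 7.81% and 3.12% in control CD4 T cells and 50% and 52.1% in tumors (29.7% and 12.5%, then 71.2% and 77.7%, at full depth). For macrophages it was 40.7% and 44.9% in controls and 57% and 55.8% in tumors (68.5% and 75.9%, then 88.1% and 89.3%, at full depth). Regulatory T cells had it in 0 of 33 and 0 of 31 control cells after thinning, which by counting error allows up to 9.09% and 9.68% of cells with a UMI at that depth and sets no limit on expression, and in 27% and 42.9% of tumor cells (9.09% and 16.1%, then 48% and 66.1%, at full depth). No gate is known to lack these genes, so no gate gives a level of background from free RNA. The tenth of cells with the most Hspa1a and Hspa1b UMIs held 55.7% and 52.5% of them in tumor CD4 T cells, and 40.4% and 41.3% in tumor macrophages.

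**Figure D5:**
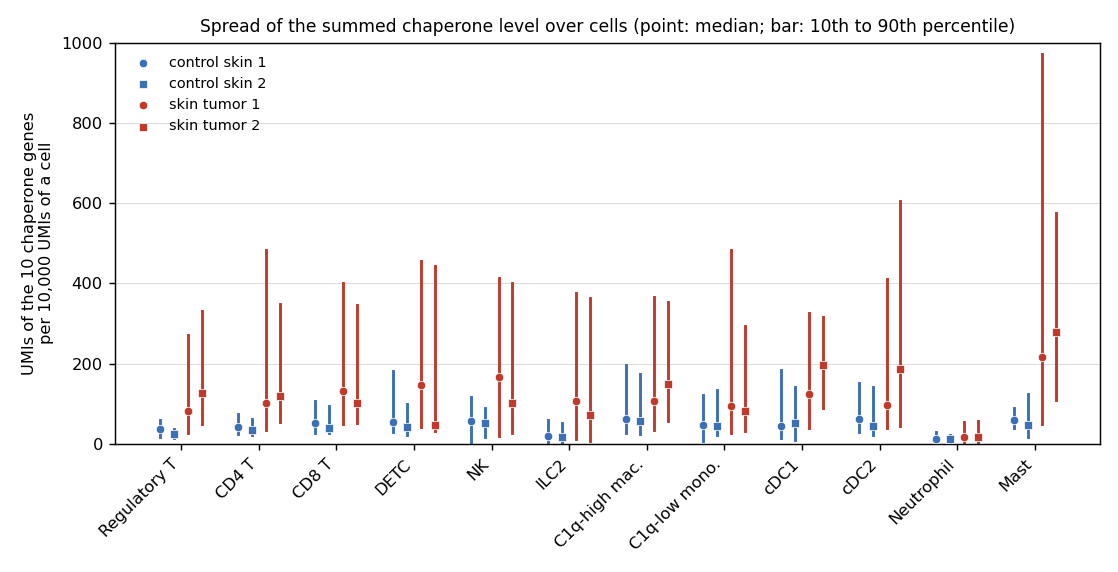
Spread over cells of the summed level of the 10 chaperone genes, in UMIs per 10000 UMIs of a cell, by gate and library (points, median; bars, 10th to 90th percentile; blue, control skin; red, skin tumor). Upper ends reach 972 in tumor mast cells and 482 in tumor CD4 T cells, whereas the lower ends of tumor bars fall into the range of the control bars.

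Other parts of the protein-folding system are given by their counts beside those of all genes. The co-chaperone list held 25 genes, which were cytosolic co-chaperones, further targets of heat shock factor 1, and the genes Hsf1, Hsf2 and Hsbp1. Of its 239 pairs of a gene and a gate, 11 were called higher (4.6%) and 4 lower (1.67%), beside 1.49% and 1.71% of all 73823 pairs. The list median was above 0 in each of the 11 gates (0.15 to 0.61 on the log2 scale). The 3 called most often were Hspb1, a small heat shock protein, Bag3, an HSP70 co-chaperone that is a classical target of heat shock factor 1, and Chordc1, an HSP90 partner. Bag3 was called in CD8 T cells (log2 fold change 1.93, adjusted p = 0.00427) and ILC2 (2.30, adjusted p = 0.0463), and Chordc1 in CD4 T cells (1.58, adjusted p = 0.0191) and ILC2 (2.22, adjusted p = 0.0307). Hspb1 was called in CD8 T cells, cDC2 and mast cells. In mast cells it was listed at 0 in both control libraries and at 10.3 and 1.31 per 10000 in tumors. The 4 lower calls were Dnajb6 in CD4 and CD8 T cells, Cdc37 in CD4 T cells and Hspa4 in ILC2, named after their values were seen. Hsf1, the gene of heat shock factor 1 and also named after its values were seen, was tested in 6 gates. It was fitted higher in 0 of them, with a median log2 fold change of -0.48, and was not called.

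Chaperones of the endoplasmic reticulum, listed together with transcription factors of the unfolded protein response, gave 0 higher and 3 lower calls among 181 pairs by edgeR. The share of lower calls, 1.66%, was near the 1.71% of all pairs, and 1.49% of all pairs were called higher. The lower calls were Atf4, one of these transcription factors (log2 fold change -0.90, adjusted p = 0.0246) and the J protein Dnajb9 (-1.13, adjusted p = 0.0207) in CD8 T cells and the chaperone Calr in ILC2 (-1.66, adjusted p = 0.0249). Neither the 7 measured subunits of the TRiC chaperonin of the cytosol (72 pairs) nor 6 other mitochondrial chaperones and proteases (41 pairs) had a call. At the shares of all pairs, lists of this size can lack calls. Tcp1, Cct8 and Cct3 of TRiC had median log2 fold changes of 0.36, 0.33 and 0.28 over gates, and Clpp, Dnaja3 and Hspa9 of mitochondria 0.74, 0.43 and -0.21. Hspa9 is the mitochondrial HSP70 that works beside Hspd1.

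Immediate early genes, which tissue dissociation and activation raise, changed in both directions in tumors. Their sum was below both controls in both tumors in 7 of 12 gates and above both in 0, and the part of dissociation in the chaperone levels was not tested. Their median log2 fold change was above 0 in 2 of 11 gates. Of 160 pairs, 7 were called higher (4.38%) and 11 lower (6.88%). Jun was called higher in CD4 T cells (3.89, adjusted p = 0.000629), CD8 T cells (2.15, adjusted p = 0.00475), NK cells (2.38, adjusted p = 0.0238) and cDC2 (2.38, adjusted p = 0.0306). All of these gates also had called members. So did mast cells, ILC2, cDC1 and macrophages, where edgeR did not call Jun (adjusted p = 0.944, 0.802, 0.0808 and 0.721). Fosb was called lower in CD8 T cells (-2.79) and cDC1 (-2.07), and Junb in CD8 T cells (-1.88) and ILC2 (-2.67). Cell cycle genes had 1 call in 60 pairs, Ube2c in CD8 T cells (1.86, adjusted p = 0.0206). Tumor CD8 T cells of replicate 1 held 59.7% cycling cells, against 22.2% to 28.6% in the other CD8 T libraries, and without cycling cells the same 7 members were called in CD8 T cells, where genes called higher went from 334 to 312. Cdk1 had no call, and Ccnb1 passed the filter in macrophages only, where both controls were at 0.

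Profiles over gates and libraries were compared over 54 sums, which include the 4 of regulatory T cells whose values chose the members. Over these sums of a gate and a library with at least 10 cells, the Pearson correlation of each member with the mean of the other 9 ran from 0.82 (Dnaja1) to 0.94 (Hspd1). Among 6158 other genes with a mean of at least 20 CPM, the 10 with the most similar profile were Bag3 (r = 0.78), Stip1 (0.77), Cacybp (0.75), Chordc1 (0.74), Hikeshi (0.73), Mrps14 (0.72), Polr2f (0.70), Nudc (0.70), Ubqln1 (0.69) and Pebp1 (0.68). Bag3, Stip1, Cacybp and Chordc1 belong to the co-chaperone list, Hikeshi is known to carry HSP70 into the nucleus under heat stress, and Nudc is an HSP90 co-chaperone. Sums of 1 library share its depth and its cells, and tumor and control sums enter together, so the values are descriptions without a p.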

How the data were processed

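The deposited files hold UMI counts per gene and cell, 1 matrix per library, which the authors made with Cell Ranger (7.1.0 in the processing notes, 7.0.1 in the file headers) on the mouse genome mm10. How intronic reads were treated is not given in the sources used here.

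As in the study's stated filter, a cell needed 100 genes, 1000 UMIs, no more than 15% of UMIs from mitochondria, and 0.8 for its log10 gene number over its log10 UMI number. This left 2981, 3089, 4784 and 1994 cells of 3499, 3862, 5176 and 2258. The study's own counts of kept cells are lower in each library. It also removed doublets and a fibroblast cluster before its analysis, so the cells used here are not the same set. Cells were gated by UMIs of marker genes, with limits set after marker values were seen, and counts were summed per gate and library. The sums were tested with edgeR 4.0.16 (quasi-likelihood, TMM scaling, filterByExpr) in R 4.3.3, with Benjamini-Hochberg adjustment over all genes of a gate and a threshold of 0.05. The difference between gates was tested as an interaction with the library as a block. DESeq2 1.42.0 was an alternative. The study's own tests over single cells were not used, as cells are not replicates. Doublets were scored in the manner of Scrublet, and the 453 cells with the highest scores stayed in except in 1 alternative. P-values rest on the spread between 2 libraries a group, moderated by the spread that edgeR shares across genes. Library totals ran from 34893543 to 73904272 UMIs and median UMIs of kept cells from 10610 to 13361.5, so intervals and limits on counts cover counting error only. For shares of cells, each cell was thinned to 1000 UMIs.

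The pipeline was tested on simulated data. In CD4 T cells (7497 genes), 84% of genes changed by a log2 fold of 2 and 20% of those changed by 1 were called with the right sign; in DETC (10420 genes) 0% of either were. Of each other list, the 3 genes called in the most gates were named, with ties broken by the larger absolute median change, beside the 10 genes most correlated with the members. The members and lists were chosen with earlier results of these data known. The samples were treated as unpaired. Over the genes of a gate, the deviation between the control replicates and that between the tumor replicates had correlations between -0.05 and 0.09. Whether samples of the same number shared a batch was not tested. The full genotype of the model behind the tumor line is not reported here.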

Additional observations from a re-analysis of the deposited data

Results flagged for a closer look

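The tumor change of 4 genes differed between gates from the same libraries by the interaction test. Hspa1a differed by 4.81 on the log2 scale between CD4 T cells and macrophages, by 1.82 between NK cells and macrophages and by -2.55 between CD8 T and CD4 T cells. Hspa1b differed by 3.92, 1.77 and -2.11 in the same order. Dnajb1 differed by -1.81 between CD8 T and CD4 T cells, and Hsp90aa1 by 1.52 between CD4 T cells and macrophages. Differences that involve CD4 T cells are not fully apart from the choice of members, as that gate can hold regulatory T cells with Foxp3 missed.

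The summed chaperone level was also higher in tumors in cells outside the tested gates, though not for each member. In cells that fell into no gate, the summed level of the 10 members in tumors was 2.56 times that in control skins. By marker genes, the mix of these ungated cells differed between the groups. Genes of Langerhans cells summed to 10.18 and 7.85 per 10000 in control skins and 0.072 and 0.215 in tumors. The CD3 genes summed to 10.18 and 11.1 in control skins and 3.35 and 3.24 in tumors. C1qa, C1qb and C1qc summed to 3.57 and 6.42 in control skins and 10.58 and 20.97 in tumors. The part of cell mix in the ratio of 2.56 was not tested. In 3 gates with fewer than 10 cells in a library the ratio was 3.31 in gamma delta T cells of the interleukin 17 type, 1.80 in mature dendritic cells and 1.93 in Langerhans cells. Both tumors lay above both controls for 7, 6 and 6 of the 10 members in the same order, and for 10 in ungated cells. The share of all genes with this pattern was not computed in these cells. These counts therefore do not set the members apart from other genes. C1qa, C1qb and C1qc summed to 21.85 and 21.97 in tumor mature dendritic cells and to 1.83 and 0 in control ones. The part of macrophage RNA in that ratio was not tested. The control mature dendritic gate held 7 and 5 cells. The tumor Langerhans gate held 1 and 6 cells and the tumor gamma delta T gate 6 and 3, and these values were not tested.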

How the results depend on the processing

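Of 1310 values of a member in a gate other than regulatory T cells under 12 alternatives, 1308 kept their sign. In all 110 pairs both tumors lay above both controls, so alternatives on the same libraries could hardly turn a sign. This count is therefore a weak check. Of 28 calls in lymphoid gates, 17 were made with stricter gates, while all genes called higher there went from 943 to 620. With stricter gates ILC2, which held 7 of the 28 calls, had under 10 cells in a library. Both counts with stricter gates therefore rest on the 4 gates left. The 15 calls in myeloid and mast gates became 37 with DESeq2's test and 47 without a filter on low counts, while all genes called higher there went from 157 to 386 and 1498, and 5 to 30 with 1 library left out. The 8 differences between gates became 5 to 9 with 1 library left out. The median log2 fold change in regulatory T cells, 2.68, ran from 2.31 to 3.02. With the replicate number as a block, 26 lymphoid and 19 myeloid and mast pairs were called, beside 1010 and 223 for all genes called higher. Without the block all genes called higher were 943 and 157. The labels tie the samples by a number only, and the block was not run for the differences between gates. The cause of these changes was not tested.

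2 uncalled values turned: Dnaja1 in DETC without cycling cells (-0.024) and Hspa8 in ILC2, which ran from -0.24 to 1.36 with 1 library left out. Uncalled differences that turned with 1 library left out were Dnaja1 between CD4 T cells and macrophages (-0.70 to 0.075), Hsp90ab1 (-0.037 to 0.88), Dnaja1 (-1.01 to 0.52) and Hspe1 (-0.31 to 0.36) between NK cells and macrophages, and Hsph1 (-0.88 to 0.45), Hsp90aa1 (-0.73 to 0.048) and Hspd1 (-0.90 to 0.073) between CD8 T and CD4 T cells. Hspe1 between NK cells and macrophages also turned with DESeq2's size factors (-0.013), DESeq2's test (-0.013), no filter on low counts (-0.049), stricter gates (-0.27) and all deposited cells (-0.032).

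With 2 libraries a group, and tumor gates of 11 to 25 cells for ILC2 and DETC, many changes could not be called. Mast cell gates held 15 to 33 cells, and control NK gates 23 and 16. In simulated data, changes of a log2 fold of 1 were called in 13% of genes in ILC2 and those of 2 in 0% in DETC, so a missing call does not show that a gene did not change.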
